A study of Homo sapiens with 6 samples.

Results

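The genes described here build, time and complete cell division in human breast cancer cells: the kinetochore, the spindle assembly checkpoint, the mitotic kinases, the spindle, the condensed chromosome, the contractile ring and the nuclear envelope. They were taken from the table by a list of gene symbols, not by a threshold on any measured value, and all 58 listed genes were found among the 20532 genes of the deposited count table. RNA sequencing was done on 3 libraries of MDA-MB-231 M3 cells in which PRMT1 was knocked down with siRNA (siPRMT1) and on 3 libraries of control MDA-MB-231 M3 cells. MDA-MB-231 is an established human line from a triple-negative breast cancer, and the labels describe M3 as a bone-metastatic form of it. Both groups are this 1 line under the same culture conditions, and the only stated difference is the siRNA. The controls carry no label beyond untreated or control, and the sources used here do not say whether a transfection or a non-targeting siRNA was part of them. PRMT1 is the main enzyme that places asymmetric dimethyl marks on arginines of histones and RNA-binding proteins.

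In mitosis, each pair of sister chromatids is held together by cohesin and compacted by condensin, and a kinetochore assembles on each centromere to catch spindle microtubules. Unattached kinetochores keep the spindle assembly checkpoint active, which holds back the anaphase-promoting complex. Once all kinetochores are attached, CDC20 turns that complex on, securin and cyclin B are destroyed, separase cuts cohesin, the chromatids part, and a contractile ring splits the cell. Most of these genes are transcribed in late S and G2 phase through promoter elements that the DREAM and MuvB-B-Myb-FOXM1 complexes read, and in a growing culture their RNA tends to follow the share of dividing cells.

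Total counts ran from 16968563 to 20545995 in the siPRMT1 libraries and from 17921097 to 19645127 in the control libraries. PRMT1 itself had 11.97, 11.9 and 11.9 CPM in the siPRMT1 libraries, against 144, 149 and 145 CPM in the control libraries, a log2 fold change of -3.62 (SE 0.0451) or a 12.3-fold lower level, as the labels state. CPM is the usual depth-scaled read count, here with TMM factors, and every log2 fold change is siPRMT1 minus control. Of the markers of the line, VIM, CD44, FN1, EGFR, CAV1 and AXL were all expressed, with VIM (mean 2368 CPM after knockdown and 1817 CPM in control cells) and AXL higher in the siPRMT1 libraries and CD44, FN1 (141 CPM after knockdown and 430.5 CPM in control cells), EGFR and CAV1 lower. ESR1, PGR, FOXA1, PTPRC, CD3E, CDH5, IBSP and DMP1 had 0 to 4 counts in every library, and VWF and ACP5 1 to 12. Other markers of those cell types were present in both groups: CD68 averaged 372 CPM after knockdown and 201 CPM in control cells, ERBB2 72.9 CPM after knockdown and 61.3 CPM in control cells, PECAM1 20.03 CPM after knockdown and 21.03 CPM in control cells and BGLAP 3.96 CPM after knockdown and 1.11 CPM in control cells. Their part in the results was not tested. Mitochondrial genes held 8.73%, 8.64% and 8.74% of the counts in the siPRMT1 libraries, against 5.08%, 5.001% and 5.09% in the control libraries, and the part of this shift in the results was not tested. Across all 13710 genes tested, 89.3% differed in edgeR's quasi-likelihood F test at a Benjamini-Hochberg threshold of 0.05, so passing that test says little in these libraries and the size of each change is what is described. The labels call the libraries biological replicates without saying that they came from separate cultures, and the p-values measure only the small spread between them, which may be technical.

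Log2 fold changes followed the base composition and length of transcripts in all tested genes, and the mitotic genes had the same relation, with values given further on. For that reason each change is given beside a corrected one, in which a smooth trend of each library's log2 CPM on transcript GC content and length was taken out. The correction removes whatever moves with GC content and length, whether it arose in the cells or in the libraries, and which of the 2 it was cannot be told apart here.

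All 58 mitotic genes passed the filter on low counts and all passed the test. After PRMT1 knockdown 22 were higher (37.9%, against 44.3% of all tested genes) and 36 were lower (62.1%, against 45% of all tested genes). At least 2-fold higher were 4 genes, AURKB, CENPM, CDC20 and PLK1 (6.90%, against 15.3% of all tested genes). At least 2-fold lower were 15 genes (25.9%, against 21% of all tested genes): LBR, ANLN, KNL1, CENPE, ECT2, TOP2A, TMPO, CKAP2, SMC2, NCAPD3, PLK4, SMC4, SGO2, INCENP and BUB1. The median log2 fold change was -0.28, beside -0.0082 over all tested genes, and single values ran from -2.74 for LBR to 1.33 for AURKB. The CPM values of the groups did not overlap for 56 of the 58 genes, the exceptions being NUF2 and NCAPH, as was so for 89.1% of all tested genes. Scaling by library size alone, without TMM, moves the median of all tested genes by -0.32 and leaves 11 mitotic genes higher and 42 lower.

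**Figure D1:**
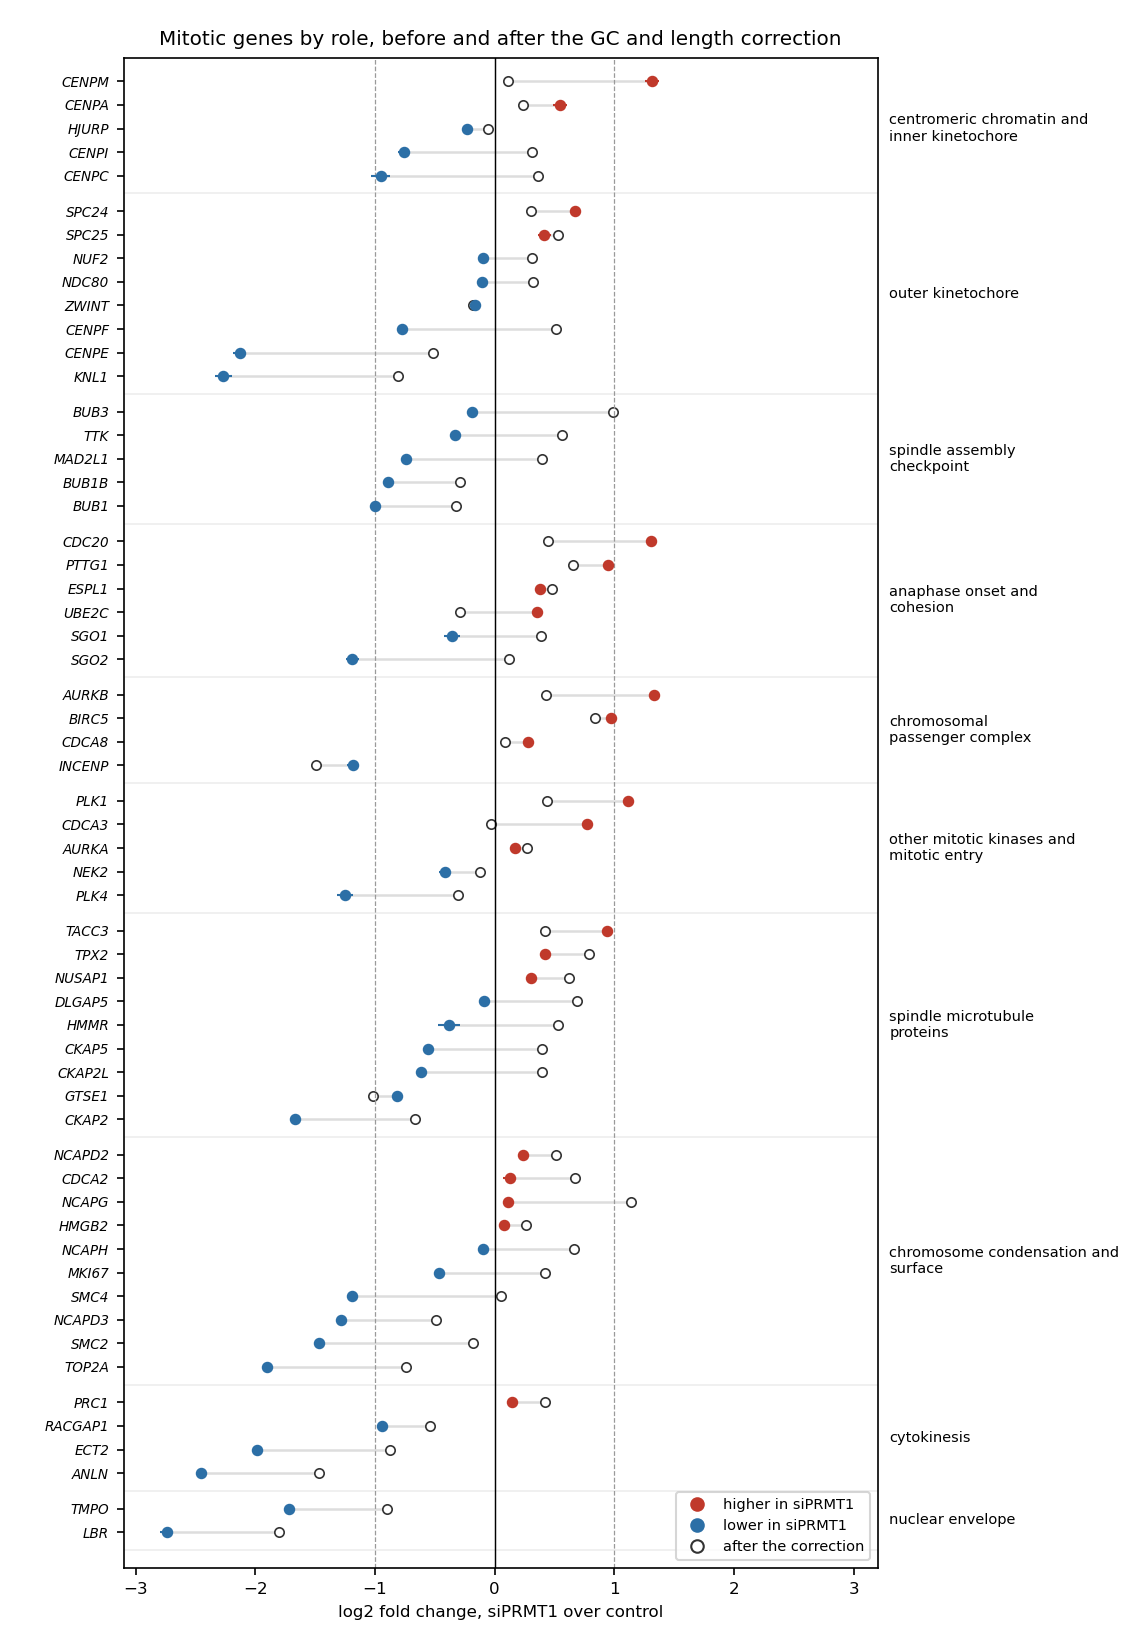
Log2 fold change (siPRMT1 over control, filled circles, bars of 1 SE) of each of the 58 mitotic genes, grouped by role, with the value after the GC and length correction as an open circle. LBR at -2.74 and AURKB at 1.33 mark the ends of the range, and 19 genes lie on the other side of 0 after the correction.

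After the GC and length correction the balance turned: 35 mitotic genes were higher, against 44.9% of all tested genes, and 19 were lower, against 35.6% of all tested genes. CDCA3, CENPM, HJURP and SMC4 no longer passed. The corrected median was 0.31, beside 0.067 over all tested genes. At least 2-fold higher was only NCAPG (5.71% of all tested genes), and at least 2-fold lower were LBR, INCENP, ANLN and GTSE1 (8.53% of all tested genes). Direction and call were the same with and without the correction for 37 genes. Of these, 19 were higher in both: AURKA, AURKB, BIRC5, CDC20, CDCA2, CDCA8, CENPA, ESPL1, HMGB2, NCAPD2, NCAPG, NUSAP1, PLK1, PRC1, PTTG1, SPC24, SPC25, TACC3 and TPX2. The other 18 were lower in both: ANLN, BUB1, BUB1B, CENPE, CKAP2, ECT2, GTSE1, INCENP, KNL1, LBR, NCAPD3, NEK2, PLK4, RACGAP1, SMC2, TMPO, TOP2A and ZWINT. Both fits use TMM. With library size alone, AURKA, CDCA2, CDCA8, HMGB2, NCAPD2, NCAPG, NUSAP1 and PRC1 fell below 0, and ESPL1 and SPC25 did not pass. In bulk RNA, fewer cells in mitosis and less of a transcript in each cell cannot be told apart.

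Among the 5 genes of centromeric chromatin and the inner kinetochore, 2 were higher and 3 were lower. Over all tested genes 44.3% were higher and 45% lower, the shares to set beside this and every later role count. After the correction these shares were 44.9% and 35.6%. CENPM, a subunit of the constitutive centromere-associated network (ENSG00000100162 on hg38, chromosome 22, 41927514 to 41947152, minus strand), had 35.8, 34.8 and 35.3 CPM in the siPRMT1 libraries, against 13.9, 14.3 and 14.3 CPM in the control libraries. Every siPRMT1 library lay above every control library, with a log2 fold change of 1.32 (SE 0.0581), and the corrected value was 0.11 (adjusted p = 0.0697 in edgeR's quasi-likelihood F test, Benjamini-Hochberg). CENPC, which links centromeric nucleosomes to the outer kinetochore, had 8.56, 10.1 and 8.41 CPM after knockdown, against 16.7, 18.3 and 17.9 CPM in control cells. It was the lowest of the 5 by fold change at -0.95, and its corrected value had the other sign at 0.36. The same reversal was seen for CENPI, another subunit of that network, which had 26.2, 22.2 and 22.6 CPM after knockdown, against 37.5, 41.3 and 40.9 CPM in control cells, with log2 fold changes of -0.75 uncorrected and 0.31 corrected. CENPA, the histone H3 variant that marks centromeres, had 26.99, 26.5 and 25.5 CPM after knockdown, against 18.5, 17.99 and 17.7 CPM in control cells, and was higher in both fits at 0.54 and 0.24. HJURP, the chaperone that deposits CENPA, had 51.7, 51.8 and 51.1 CPM after knockdown, against 60.98, 58.8 and 61.7 CPM in control cells. The groups were apart for HJURP too, but its change was small at -0.23, and at -0.056 corrected it did not pass (adjusted p = 0.151 in edgeR's quasi-likelihood F test, Benjamini-Hochberg).

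In the outer kinetochore, the layer that binds microtubules, 2 of 8 genes were higher and 6 were lower. The NDC80 complex is a rod of 4 proteins, and before the correction its ends differed in direction. SPC24 (ENSG00000161888 on hg38, chromosome 19, 11131520 to 11155765, minus strand), from the end that faces the chromosome, had 51.3, 54.3 and 56.8 CPM in the siPRMT1 libraries, against 33.2, 33.3 and 35.1 CPM in the control libraries, and rose by 0.68 on the log2 scale (corrected 0.31). Its partner SPC25 had 34.2, 37.6 and 32.3 CPM after knockdown, against 27.2, 24.2 and 26.9 CPM in control cells, with a log2 fold change of 0.42 (corrected 0.53, and 0.099 with library size alone, where it did not pass). The microtubule-binding end changed little. NDC80 had 57.6, 55.6 and 52.03 CPM after knockdown, against 58.8, 59.5 and 59.4 CPM in control cells, with the lowest control library above the highest siPRMT1 library by a small margin. NUF2 had 40.6, 38.3 and 37.1 CPM after knockdown, against 43.2, 39.6 and 40.9 CPM in control cells, and here the groups overlapped. The log2 fold changes were -0.10 for NDC80 and -0.094 for NUF2, and NUF2 had the largest adjusted p of the 58 genes (0.0406, edgeR's quasi-likelihood F test, Benjamini-Hochberg). NDC80 did not pass without siPRMT1 library 3 (-0.066), and NUF2 did not pass without control library 1 (-0.059), siPRMT1 library 2 (-0.083) or siPRMT1 library 3 (-0.066). Their corrected values were 0.32 and 0.32, both past the threshold on the other side of 0.

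KNL1 (ENSG00000137812 on hg38, chromosome 15, 40594020 to 40663904, plus strand), the scaffold on which checkpoint proteins gather, had 8.44, 6.15 and 6.24 CPM in the siPRMT1 libraries, against 34.3, 32.4 and 33.4 CPM in the control libraries. Its level was 4.82-fold lower, a log2 fold change of -2.27 (SE 0.0722) and -0.80 corrected, and in the siPRMT1 libraries it had the fewest reads of the 58 genes, 95 to 136 counts. CENPE, a kinesin that carries chromosomes to the spindle equator, had 11.4, 14.1 and 10.4 CPM after knockdown, against 55.5, 51.6 and 51.8 CPM in control cells, with log2 fold changes of -2.13 and -0.52 corrected. The 2 genes with the largest falls in the layer were thus the same before and after correction. CENPF, a large coiled-coil protein of the same layer, had 104, 104 and 105 CPM after knockdown, against 179, 176 and 179 CPM in control cells, and fell by 0.77 on the log2 scale, while its corrected value was 0.51. ZWINT, which KNL1 binds, had the highest reads per kilobase of the 8 in control cells, and had 100.9, 105 and 101.4 CPM after knockdown, against 114, 115 and 114 CPM in control cells. The libraries of the groups were apart, by a log2 fold change of -0.16 (corrected -0.18).

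All 5 spindle assembly checkpoint genes were lower (median -0.74), against 45% of all tested genes. After the correction 3 of them were higher, against 44.9% of all tested genes, and the median was 0.40. BUB1 (ENSG00000169679 on hg38, chromosome 2, 110637528 to 110678063, minus strand), the kinase that marks centromeres for shugoshin, had 63.8, 65.1 and 68.3 CPM in the siPRMT1 libraries, against 128, 134 and 132 CPM in the control libraries. Every siPRMT1 library was well below every control library, with a log2 fold change of -1.001 (SE 0.0311) and -0.32 corrected. BUB1B, which encodes BUBR1 of the mitotic checkpoint complex, had 34.9, 32.4 and 34.2 CPM after knockdown, against 61.3, 64.1 and 62.8 CPM in control cells and changed by -0.89 (corrected -0.29). MAD2L1, the MAD2 protein that captures CDC20, had 57.6, 58.8 and 57.9 CPM after knockdown, against 98.005, 97.999 and 95.7 CPM in control cells, which gave -0.74, against 0.40 corrected. TTK, the MPS1 kinase that starts checkpoint signalling, had 46.6, 44.4 and 48.2 CPM after knockdown, against 58.3, 59.2 and 57.03 CPM in control cells, with values of -0.33 and 0.56. BUB3, the adaptor that brings BUB1 and BUBR1 to KNL1, changed least, with 191, 189.5 and 182 CPM after knockdown, against 217, 215 and 211 CPM in control cells. Its log2 fold change was -0.19, and 0.99 after the correction.

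Of 6 genes of anaphase onset and cohesion protection, 4 were higher (median 0.37), and after the correction 5 were higher (median 0.42). CDC20 (ENSG00000117399 on hg38, chromosome 1, 43358981 to 43363203, plus strand), the activator of the anaphase-promoting complex, averaged 274 ± 6.41 CPM after knockdown and 111 ± 0.192 CPM in control cells (SD, n = 3 each). Its 3 siPRMT1 libraries had 275, 267 and 279.6 CPM and the 3 control libraries 111, 110.4 and 111 CPM. That is a 2.47-fold rise, 1.31 on the log2 scale (SE 0.0236), with 0.45 left after the correction. PTTG1, securin, which holds separase inactive, had 235, 245 and 234 CPM after knockdown, against 125, 125 and 120.0 CPM in control cells. It had the highest reads per kilobase of all 58 genes in both groups, and its log2 fold change was 0.95 (corrected 0.65). ESPL1, separase itself, had 47.3, 43.5 and 46.97 CPM after knockdown, against 34.97, 35.3 and 35.1 CPM in control cells, a log2 fold change of 0.38 (corrected 0.48) that did not pass with library size alone (0.066). UBE2C, the ubiquitin-conjugating enzyme of the anaphase-promoting complex, had 165, 169 and 173 CPM after knockdown, against 131, 133 and 133 CPM in control cells. The groups were apart, yet the direction of UBE2C depended on the fit: 0.35 uncorrected, 0.036 and not past the threshold with library size alone, and -0.29 after the correction. GENCODE lists 5 named UBE2C pseudogenes with which UBE2C may share reads. Others of the 58 genes have named pseudogenes too, such as 3 for NEK2 and 2 each for SGO1, AURKA, DLGAP5, NCAPG and TMPO.

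The 2 shugoshins, which shield centromeric cohesin until anaphase, were lower. SGO2, the larger, had 18.2, 20.3 and 21.6 CPM after knockdown, against 45.2, 47.7 and 44.4 CPM in control cells, and SGO1 had 14.95, 15.2 and 14.5 CPM after knockdown, against 18.5, 19.99 and 18.9 CPM in control cells. The groups did not overlap for either gene, and the log2 fold changes were -1.19 for SGO2 and -0.36 for SGO1. After the correction SGO2 stood at 0.12 and SGO1 at 0.39.

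The chromosomal passenger complex, which corrects wrong attachments and later directs cytokinesis, split between its kinase and its scaffold. AURKB (ENSG00000178999 on hg38, chromosome 17, 8204733 to 8210581, minus strand), its catalytic subunit, had 103, 106 and 106 CPM in the siPRMT1 libraries, against 42.6, 39.4 and 42.96 CPM in the control libraries, means of 105 ± 1.82 CPM after knockdown and 41.6 ± 1.97 CPM in control cells (SD, n = 3 each). This 2.52-fold rise was the largest of the 58 genes (log2 fold change 1.33, SE 0.0354, corrected 0.43). INCENP (ENSG00000149503 on hg38, chromosome 11, 62123998 to 62153163, plus strand), the scaffold that binds and activates AURKB, had 20.9, 20.1 and 20.4 CPM in the siPRMT1 libraries, against 46.2, 45.3 and 47.3 CPM in the control libraries. It was 2.27-fold lower, -1.18 on the log2 scale (SE 0.0509). Its corrected value was further from 0, at -1.50, and its transcript has a GC content of 58.8%. BIRC5, survivin, had 149, 156 and 154 CPM after knockdown, against 79.9, 78.8 and 74.8 CPM in control cells and CDCA8, borealin, had 66.6, 67.8 and 66.5 CPM after knockdown, against 56.6, 53.3 and 55.3 CPM in control cells. BIRC5 rose by 0.98 (corrected 0.84), and CDCA8 by 0.28 (corrected 0.083), a direction that turned to -0.036 with library size alone.

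Of the 5 other mitotic kinases and entry genes, 3 were higher and 2 lower. PLK1, which drives mitotic entry, centrosome maturation and cytokinesis, had 142, 145 and 139 CPM in the siPRMT1 libraries, against 67.6, 62.4 and 67.2 CPM in the control libraries, a rise of 1.11 on the log2 scale (SE 0.0301, corrected 0.44). PLK4 (ENSG00000142731 on hg38, chromosome 4, 127880893 to 127898800, plus strand), the kinase that starts centriole duplication, had 11.6, 14.6 and 10.2 CPM in the siPRMT1 libraries, against 28.6, 30.4 and 28.7 CPM in the control libraries. Both relatives had groups that did not overlap, in opposite directions, and PLK4 stood at -1.25 (corrected -0.31). AURKA, the Aurora kinase of the spindle poles, had the highest reads per kilobase of the 5 in control cells, and had 171, 171 and 165 CPM after knockdown, against 148, 153 and 149.7 CPM in control cells. Its log2 fold change of 0.17 (corrected 0.27) turned to -0.14 with library size alone. NEK2, a kinase that parts the centrosomes, had 31.9, 30.8 and 33.3 CPM after knockdown, against 43.2, 43.03 and 41.6 CPM in control cells, a log2 fold change of -0.42 (corrected -0.12). CDCA3, which helps to remove the mitotic inhibitor WEE1, had 58.7, 62.8 and 60.96 CPM after knockdown, against 35.4, 35.03 and 36.4 CPM in control cells. Its 0.77 became -0.031 after the correction and no longer passed.

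The Aurora and Polo relatives are shown here because they encode the same residues over short stretches with different bases, mostly at the third codon position, shown in capitals. The codons cgG and agA of the Aurora stretch, and ctG and ttA of the Polo stretch, also differ at the first position. Each stretch can be read beside its log2 fold change. The longest run of identical residues in AURKB and AURKA covers 22 codons, at chr17:8207283-8207348 for AURKB and chr20:56383092-56383157 for AURKA, both on the minus strand of hg38 (coding exons, GENCODE release 44), written 5′ to 3′ in the direction of the transcript. The longest such run in PLK1 and PLK4 covers 9 codons, at chr16:23680964-23680990 for PLK1 and chr4:127885878-127885904 for PLK4, both on the plus strand.
AURKB: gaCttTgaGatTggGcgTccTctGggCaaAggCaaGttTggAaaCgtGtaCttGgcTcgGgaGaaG
AURKA: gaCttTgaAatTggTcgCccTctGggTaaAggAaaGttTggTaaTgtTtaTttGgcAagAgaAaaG
PLK1: acCctGtgTggGacTccTaaTtaCatA
PLK4: acAttAtgTggAacTccTaaCtaCatT
In the Aurora stretch 13 of 66 bases differ, and G or C stands at the third position of 14 codons in AURKB and of 6 in AURKA. In the Polo stretch 6 of 27 bases differ, with G or C at the third position of 4 codons in PLK1 and of 2 in PLK4. Over the whole coding sequence, G or C stood at the third position of 72.4% of codons in AURKB and 38.7% in AURKA, and 73.3% in PLK1 and 31.3% in PLK4. The log2 fold changes beside these shares were 1.33 for AURKB (corrected 0.43), 0.17 for AURKA (0.27), 1.11 for PLK1 (0.44) and -1.25 for PLK4 (-0.31). Other genes went the other way. SMC2 had 33.8% and a change of -1.47, beside 30.1% and -1.19 for SMC4, and INCENP had 75.7% and -1.18. Spearman's rho between the third-position share of G or C and the log2 fold change was 0.597 across the 58 genes (corrected 0.079). Over 13671 tested genes it was 0.549 (corrected 0.018). The part of these bases in the changes was not tested.

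Of the 9 spindle microtubule genes, 3 were higher and 6 were lower (median -0.38, corrected 0.42). TACC3, which with CKAP5 and clathrin crosslinks spindle fibres, had 157, 162 and 159.8 CPM in the siPRMT1 libraries, against 84.2, 83.9 and 81.6 CPM in the control libraries, a log2 fold change of 0.94 (corrected 0.42). CKAP5, the chTOG microtubule polymerase and partner of TACC3, had 155, 153 and 157 CPM after knockdown, against 228, 226 and 227 CPM in control cells. The 2 partners moved in opposite directions, CKAP5 at -0.55, until the correction put CKAP5 at 0.40. TPX2, the activator of AURKA, had the highest reads per kilobase of the 9 in control cells, and had 283, 272 and 278 CPM after knockdown, against 206, 206 and 209 CPM in control cells. It rose by 0.42 (corrected 0.79). NUSAP1, which bundles microtubules near chromosomes, had 146, 144 and 147 CPM after knockdown, against 119, 115 and 119.5 CPM in control cells. Its 0.30 (corrected 0.62) turned to -0.013 with library size alone.

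CKAP2 (ENSG00000136108 on hg38, chromosome 13, 52455429 to 52476627, plus strand), a protein of spindle microtubules, fell the most of the 9, with 24.9, 24.5 and 26.8 CPM in the siPRMT1 libraries, against 79.5, 81.4 and 81.3 CPM in the control libraries. Its log2 fold change was -1.67 (corrected -0.67), and the groups were far apart. CKAP2L, its relative, had 53.3, 51.6 and 49.99 CPM after knockdown, against 78.7, 80.7 and 77.5 CPM in control cells, with -0.61 uncorrected and 0.40 corrected. GTSE1, which steadies microtubules in mitosis, had 28.5, 27.6 and 27.98 CPM after knockdown, against 48.1, 51.4 and 48.4 CPM in control cells, and its fall of 0.81 on the log2 scale grew to 1.02 after the correction. Like INCENP, its transcript is rich in G and C, at 53.8%. DLGAP5, known as HURP, had 114, 112 and 118 CPM after knockdown, against 119, 121 and 125 CPM in control cells, a difference of -0.087 that became 0.69 after the correction. HMMR, a spindle-pole protein, had the fewest counts of the 58 genes in the control libraries, and had 8.62, 8.10 and 8.08 CPM after knockdown, against 11.5, 9.55 and 11.2 CPM in control cells. HMMR changed by -0.38, against 0.53 corrected.

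**Figure D2:**
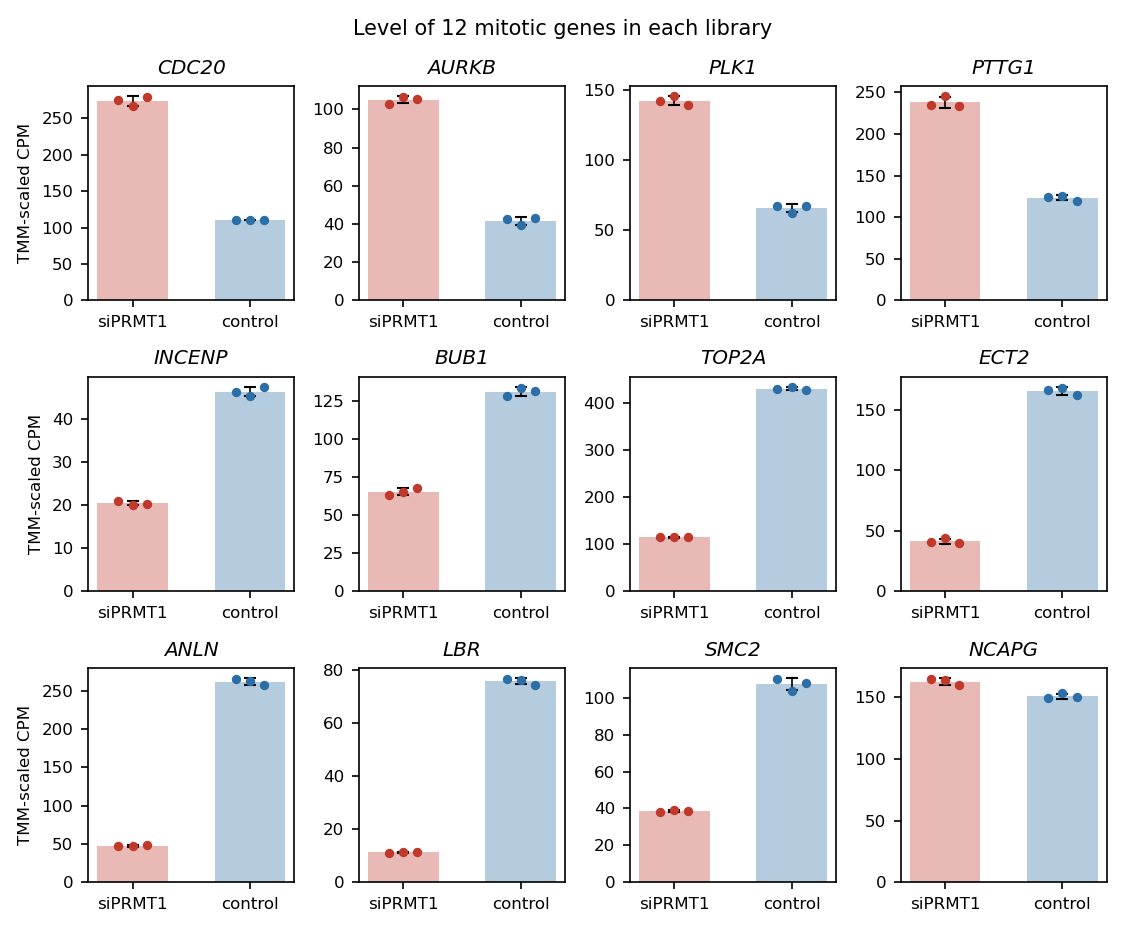
TMM-scaled CPM (axes from 0) of 12 mitotic genes, with a point for each of the 3 siPRMT1 libraries and the 3 control libraries, bars at the mean and error bars of 1 SD. ANLN lies between 47.1 and 49.4 CPM after knockdown and between 257 and 266 CPM in control cells, and AURKB moves the other way.

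Among the 10 genes of chromosome condensation and the chromosome surface, 4 were higher and 6 lower. At least 2-fold lower were 4, against 21% of all tested genes. TOP2A (ENSG00000131747 on hg38, chromosome 17, 40388525 to 40417896, minus strand), the topoisomerase that untangles sister DNA, had 115, 116 and 114 CPM in the siPRMT1 libraries, against 428, 432 and 428 CPM in the control libraries, means of 115 ± 0.945 CPM after knockdown and 429 ± 2.73 CPM in control cells (SD, n = 3 each). Its level was 3.73-fold lower (log2 fold change -1.90, SE 0.0212, corrected -0.74). TOP2A alone made up 2.43%, 2.45% and 2.42% of the reads of the 58 genes in the siPRMT1 libraries, against 7.54%, 7.60% and 7.56% in the control libraries, where it had more reads than any of the others. MKI67, the Ki-67 protein that coats mitotic chromosomes and is used to stain dividing cells, had 175, 175 and 178 CPM after knockdown, against 241, 239.5 and 246 CPM in control cells. It changed by -0.46 (corrected 0.42). As a share of all counts, the 58 genes together took 0.422%, 0.424% and 0.424% in the siPRMT1 libraries, against 0.633%, 0.635% and 0.631% in the control libraries. This share is scaled by library size alone, which moves the median log2 fold change of all tested genes by -0.32. It is also not corrected for GC content and length, so it does not measure a loss of mitotic RNA.

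Condensin I and condensin II share the core subunits SMC2 and SMC4. SMC2 had 38.3, 39.3 and 38.6 CPM after knockdown, against 110.2, 104 and 108 CPM in control cells, and SMC4 had 48.9, 49.8 and 47.5 CPM after knockdown, against 110.1, 113 and 110.2 CPM in control cells. Both cores were lower in every siPRMT1 library, SMC2 at -1.47 (corrected -0.18) and SMC4 at -1.19 (corrected 0.056, which did not pass). The subunits particular to condensin I moved little: NCAPD2 had 173, 175 and 178 CPM after knockdown, against 149, 148 and 151 CPM in control cells. NCAPG had 164, 164 and 159 CPM after knockdown, against 149, 153 and 149.7 CPM in control cells. NCAPH had 47.03, 47.7 and 46.2 CPM after knockdown, against 52.1, 51.2 and 47.2 CPM in control cells, and its groups overlapped. Their log2 fold changes were 0.23 for NCAPD2, 0.11 for NCAPG and -0.093 for NCAPH, and the first 2 turned to -0.083 and -0.20 with library size alone. NCAPH did not pass without control library 1 (-0.063), control library 2 (-0.082) or siPRMT1 library 3 (-0.079). After the correction the 3 stood at 0.51, 1.14 and 0.67, NCAPG being the highest corrected value of the 58 genes. NCAPD3, of condensin II, had 40.5, 40.2 and 42.2 CPM after knockdown, against 97.6, 103 and 99.2 CPM in control cells, and was lower in both fits at -1.28 and -0.49.

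The other genes of this list changed by little. HMGB2, a DNA-bending chromatin protein, had 84.5, 83.04 and 80.1 CPM after knockdown, against 79.9, 76.1 and 78.3 CPM in control cells, and CDCA2, known as Repo-Man, which recruits phosphatase to chromosomes at mitotic exit, had 30.8, 30.1 and 31.3 CPM after knockdown, against 28.6, 26.5 and 29.4 CPM in control cells. The groups were narrowly apart, with log2 fold changes of 0.080 for HMGB2 (corrected 0.26) and 0.12 for CDCA2 (corrected 0.67), which turned to -0.24 and -0.19 with library size alone. HMGB2 did not pass without control library 2 (0.060) or siPRMT1 library 1 (0.064), and CDCA2 did not pass without control library 2 (0.083) or siPRMT1 library 3 (0.11).

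Cytokinesis and nuclear envelope genes, with 5 of 6 lower (against 45% of all tested genes), held the 2 largest falls of the 58 genes. ANLN (ENSG00000011426 on hg38, chromosome 7, 36389821 to 36453791, plus strand), anillin, the scaffold of the contractile ring, had 47.1, 47.3 and 49.4 CPM in the siPRMT1 libraries, against 266, 263 and 257 CPM in the control libraries, means of 47.9 ± 1.29 CPM after knockdown and 262 ± 4.43 CPM in control cells (SD, n = 3 each). It was 5.47-fold lower, -2.45 on the log2 scale (SE 0.0292, corrected -1.47). ECT2 (ENSG00000114346 on hg38, chromosome 3, 172750682 to 172821473, plus strand), the exchange factor that switches on RhoA at the cell equator, had 41.1, 43.8 and 39.7 CPM in the siPRMT1 libraries, against 166, 168 and 162 CPM in the control libraries. This was a 3.97-fold lower level, -1.99 on the log2 scale (corrected -0.87). RACGAP1, the centralspindlin subunit that binds ECT2, had 63.03, 61.1 and 65.5 CPM after knockdown, against 122, 121 and 119 CPM in control cells and changed by -0.94 (corrected -0.54). PRC1, which bundles the antiparallel microtubules of the central spindle, was the exception among the 4, with 139, 139 and 139 CPM after knockdown, against 124, 131 and 122 CPM in control cells. Its log2 fold change was 0.15 (corrected 0.42), and -0.17 with library size alone.

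LBR (ENSG00000143815 on hg38, chromosome 1, 225401502 to 225428855, minus strand), the lamin B receptor, an inner nuclear membrane protein that tethers chromatin, had 10.98, 11.5 and 11.5 CPM in the siPRMT1 libraries, against 76.6, 76.2 and 74.4 CPM in the control libraries, means of 11.3 ± 0.291 CPM after knockdown and 75.7 ± 1.13 CPM in control cells (SD, n = 3 each). The 6.69-fold lower level was the largest fall of the 58 genes before and after correction (-2.74, SE 0.0527, and -1.81). TMPO (ENSG00000120802 on hg38, chromosome 12, 98515561 to 98547864, plus strand), which encodes the lamina-associated LAP2 proteins, had 70.6, 72.7 and 72.4 CPM in the siPRMT1 libraries, against 234, 239.8 and 237 CPM in the control libraries. TMPO changed by -1.72 (corrected -0.90). For both genes each siPRMT1 library lay far below each control library.

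Ratios between 2 genes counted in the same library do not depend on scaling between libraries, and pairs that share a complex or family were compared in this way, as reads per kilobase. The 17 pairs were chosen after values had been seen, so they are descriptions with no test. Beside each quotient of siPRMT1 over control stands the corrected quotient, from the log2 fold changes after the GC and length correction. INCENP to AURKB was 0.0613, 0.0569 and 0.0582 in the siPRMT1 libraries, against 0.328, 0.348 and 0.333 in the control libraries, a quotient of 0.175 (corrected 0.264). CDC20 to MAD2L1, its inhibitor, was 15.1, 14.4 and 15.3 in the siPRMT1 libraries, against 3.58, 3.57 and 3.67 in the control libraries, a quotient of 4.14 (corrected 1.03). The ratio of activator to inhibitor was higher, and that of scaffold to kinase lower, in every siPRMT1 library, but after the correction CDC20 and MAD2L1 changed by nearly the same amount. SPC24 to NDC80 was 0.827, 0.907 and 1.01 in the siPRMT1 libraries, against 0.524, 0.520 and 0.548 in the control libraries, and NUF2 to NDC80 was 0.764, 0.746 and 0.772 in the siPRMT1 libraries, against 0.794, 0.721 and 0.746 in the control libraries. Within the NDC80 complex, the microtubule-binding partners kept an overlapping ratio, with a quotient of 1.01 (corrected 0.998), while the quotient of SPC24 to NDC80 was 1.73 (corrected 0.991) and that of SPC25 to NUF2 was 1.42 (corrected 1.16). PLK4 to PLK1 was 0.0459, 0.0564 and 0.0411 in the siPRMT1 libraries, against 0.238, 0.274 and 0.240 in the control libraries, a quotient of 0.190 (corrected 0.594). AURKB to AURKA was 0.986, 1.02 and 1.05 in the siPRMT1 libraries, against 0.471, 0.422 and 0.469 in the control libraries, a quotient of 2.24 (corrected 1.11). Among condensins, the quotient of SMC2 to NCAPG was 0.334 (corrected 0.399) and that of NCAPD3 to NCAPD2 was 0.349 (corrected 0.4998), while SMC4 to SMC2 stayed closer at 1.21 (corrected 1.18). ECT2 to RACGAP1 had a quotient of 0.481 (corrected 0.795), SGO2 to SGO1 of 0.564 (corrected 0.832), CKAP2 to CKAP2L of 0.482 (corrected 0.478), BUB1 to BUB3 of 0.571 (corrected 0.404), CDCA8 to BIRC5 of 0.618 (corrected 0.591), PTTG1 to ESPL1 of 1.48 (corrected 1.13) and SPC25 to SPC24 of 0.834 (corrected 1.17). The groups did not overlap for 16 of the 17 pairs, in data where 89.1% of all tested genes do not overlap singly.

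**Figure D3:**
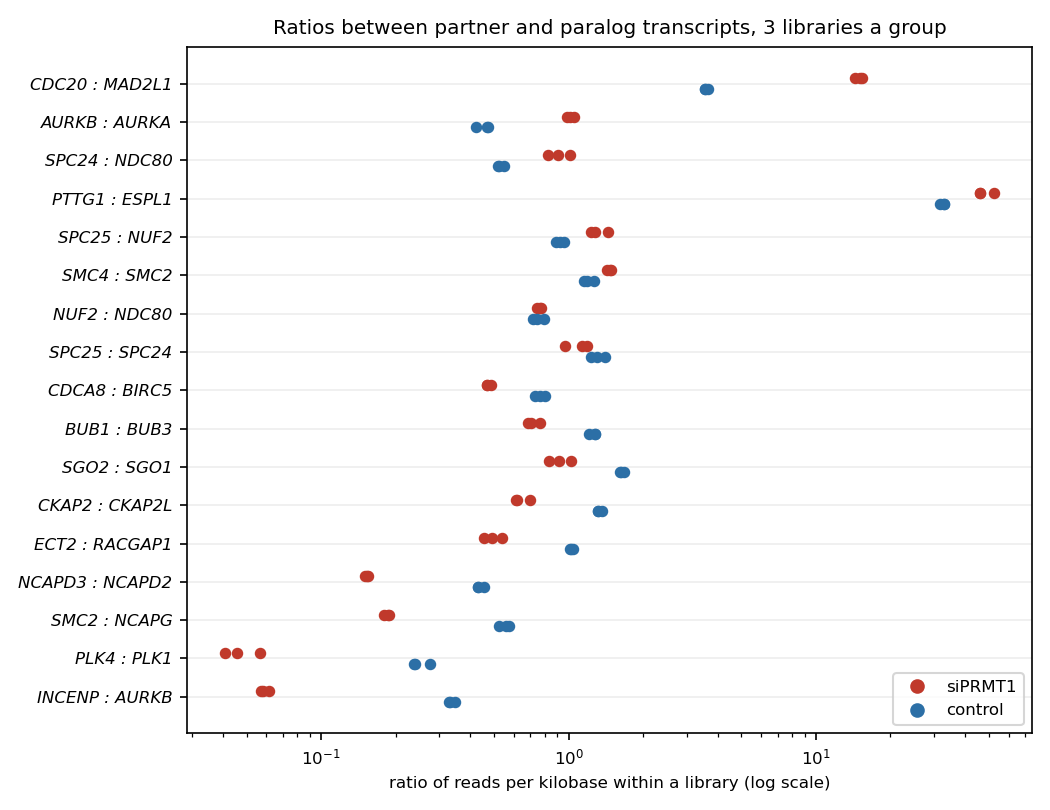
Ratio of reads per kilobase between 2 genes within each library (log axis), for the 3 siPRMT1 libraries and the 3 control libraries of each pair. NUF2 to NDC80 has overlapping groups, and CDC20 to MAD2L1 shows the widest gap upward, with a quotient of 4.14 (corrected 1.03).

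By reads per kilobase, PTTG1 had the highest level of the 58 genes in both groups (333 ± 9.17 CPM per kilobase after knockdown and 172 ± 4.06 in control cells, SD, n = 3 each). UBE2C was second in both groups, at 218 ± 5.61 CPM per kilobase after knockdown and 170.2 ± 1.86 in control cells, so the ranges of 1 SD of PTTG1 and UBE2C overlapped in control cells and lay apart after knockdown. TOP2A ranked 26 after knockdown and 3 in control cells, TMPO ranked 30 and 8, and ANLN ranked 38 and 9. CDC20, by contrast, ranked 3 after knockdown and 5 in control cells.

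The size and direction of change followed the make-up of the transcript. Across the 58 genes, Spearman's rho between the log2 fold change and the GC content of the canonical transcript was 0.653, beside 0.648 over 13676 tested genes. With transcript length it was -0.673, beside -0.557 over all tested genes, and with the number of exons -0.517, beside -0.231. These are correlations across genes of the same 6 libraries, and genes are not independent replicates. Of the 23 mitotic genes with a GC content under 40%, 3 were higher and 20 lower, with a median of -0.95, beside -1.02 over the 2254 tested genes of that range. Of the 21 between 40% and 50%, 7 were higher and 14 lower (median -0.23, beside -0.44 over 5109 genes). Of the 14 at 50% or more, 12 were higher, all but INCENP and GTSE1, and the median was 0.72, beside 0.63 over 6313 genes. By length, 9 of the 11 transcripts under 2000 bases were higher (median 0.54, beside 0.79 over all tested genes of that length), 10 of the 24 between 2000 and 4000 bases (-0.17, beside 0.11), and 3 of the 23 of at least 4000 bases (-0.95, beside -0.70). Transcripts ran from 715 bases (PTTG1) to 12716 bases (MKI67), and GC content from 34.4% (SGO2) to 59.7% (CENPM). After the correction rho was 0.132 with GC content and -0.110 with length, as the correction is built to do. The part of library making or RNA quality in this relation was not tested.

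**Figure D4:**
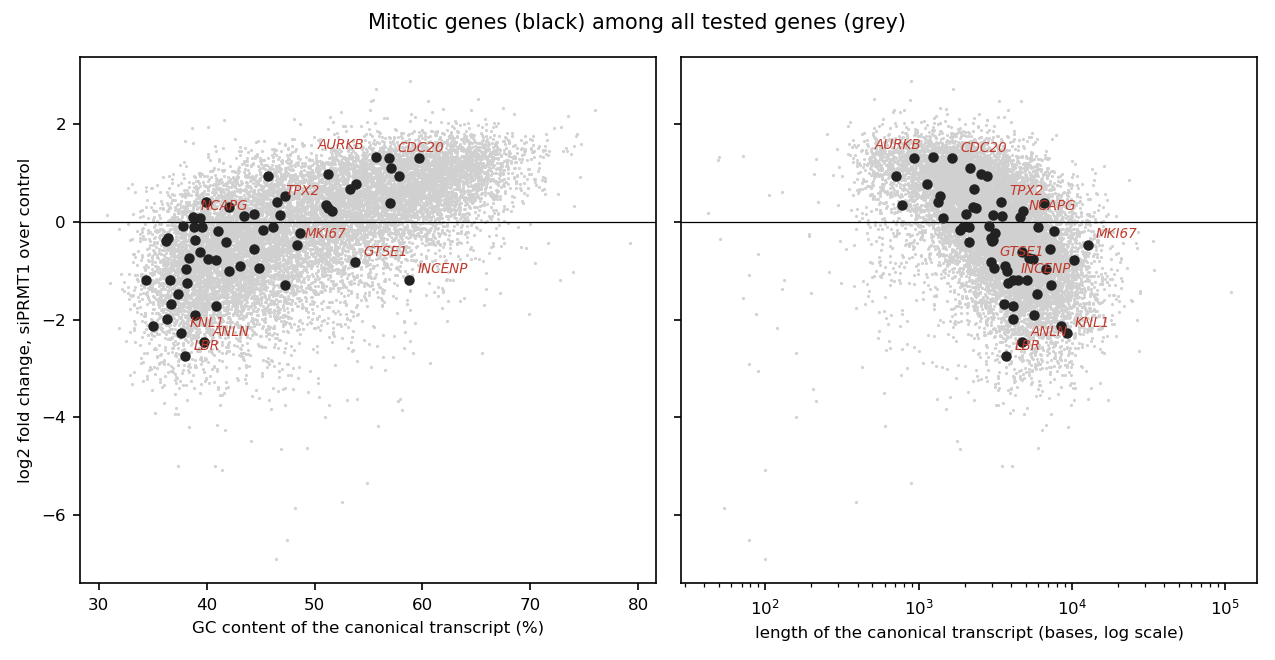
Log2 fold change of the 58 mitotic genes against the GC content (percent) and the length (bases, log axis) of the canonical transcript, over all tested genes in grey. Above 0 lie 12 of the 14 mitotic genes with a GC content of 50% or more, all but INCENP and GTSE1, and 9 of the 11 with transcripts under 2000 bases.

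Promoters of mitotic genes often hold a cell cycle genes homology region, CHR, searched here as TTTGAA or TTCGAA, and a CCAAT box, searched as CCAAT, each on both strands of the 250 bases before a RefSeq start site (GRCh38.p14). Windows were matched by symbol for 47 of the 58 genes. Of the 11 without a window, AURKA, BIRC5, CDCA2, CENPM, HMGB2, TPX2 and UBE2C were higher, and BUB3, KNL1, RACGAP1 and TTK lower. The counts below leave these out. A CHR was found for 24 of the 47 (51.1%, against 17.2% of 27305 symbols) and CCAAT for 35 (74.5%, against 36.997%). The 24 genes with a CHR did not move as 1 block: 9 were higher and 15 lower, with a median log2 fold change of -0.31 (corrected 0.38). Of the 23 without it, 6 were higher and 17 lower (median -0.74, corrected 0.31). With a CCAAT, 13 were higher and 22 lower (median -0.36, corrected 0.39). Without it, 2 were higher and 10 lower (median -1.04, corrected -0.063). Over all tested genes 44.3% were higher and 45% lower. The part of either element in the changes was not tested. The 200 bases upstream of the start are printed for the 2 highest and the 2 lowest log2 fold changes among genes with a CHR. These 4 were picked for having a CHR, so sharing it is no result. ANLN has no CCAAT in its window, and the other 3 have it. All 4 are on the plus strand, in capitals where the letters of CHR or CCAAT stand on either strand: CDC20 at chr1:43358781-43358980, PLK1 at chr16:23678689-23678888, ANLN at chr7:36389662-36389861 and ECT2 at chr3:172750526-172750725. The RefSeq starts of PLK1, ANLN and ECT2 lie downstream of the gene starts in the deposited table, which fall inside the windows of ANLN and ECT2 and upstream of the whole PLK1 window (23677656).
CDC20: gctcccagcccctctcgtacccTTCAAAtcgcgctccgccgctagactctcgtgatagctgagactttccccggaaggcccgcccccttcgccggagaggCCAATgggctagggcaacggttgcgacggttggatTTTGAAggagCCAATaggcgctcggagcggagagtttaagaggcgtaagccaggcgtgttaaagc
PLK1: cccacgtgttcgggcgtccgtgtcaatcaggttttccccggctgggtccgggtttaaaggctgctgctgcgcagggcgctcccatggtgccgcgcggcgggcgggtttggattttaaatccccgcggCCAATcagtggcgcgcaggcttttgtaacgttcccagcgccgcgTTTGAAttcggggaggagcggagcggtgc
ANLN: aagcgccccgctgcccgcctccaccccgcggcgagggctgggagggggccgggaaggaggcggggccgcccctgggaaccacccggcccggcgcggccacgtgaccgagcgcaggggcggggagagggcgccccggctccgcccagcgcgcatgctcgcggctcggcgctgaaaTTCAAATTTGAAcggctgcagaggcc
ECT2: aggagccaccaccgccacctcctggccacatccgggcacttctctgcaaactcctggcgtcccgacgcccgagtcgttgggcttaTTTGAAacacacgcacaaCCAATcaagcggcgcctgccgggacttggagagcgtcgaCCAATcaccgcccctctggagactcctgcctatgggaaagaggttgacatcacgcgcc
The CHR nearest to the start begins 65 bases upstream in CDC20, 29 in PLK1, 20 in ANLN and 115 in ECT2. CDC20 and PLK1 were higher (1.31 and 1.11), and ANLN and ECT2 were lower (-2.45 and -1.99). A match is a description of letters, not a bound site.

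Higher and lower genes were also mixed among 94 other genes of mitosis, drawn from lists of the kinetochore, the anaphase-promoting complex, cohesin, the centrosome and mitotic control. Of these, 39 were higher (41.5%, against 44.3% of all tested genes) and 52 lower (55.3%, against 45%), and SKA2, SKA3 and ANAPC10 did not pass. At least 2-fold, 14 were higher (14.9%, against 15.3%) and 30 lower (31.9%, against 21%). The median was -0.27 (corrected 0.12, with 49 higher and 32 lower), beside -0.28 (corrected 0.31) for the 58 genes. The list of cohesin and its regulators had the lowest median, -1.20 (corrected -0.19), and also holds the condensin II genes NCAPG2 and NCAPH2. Without those, 12 of its 13 genes were lower, against 45% of all tested genes, and 11 at least 2-fold, against 21%, while CDCA5 was higher (median -1.39). After the correction 9 of the 13 were lower and the other 4 did not pass (median -0.22). RAD21, the cohesin subunit that separase cuts, had 51.5, 57.4 and 54.5 CPM in the siPRMT1 libraries, against 269, 266 and 272 CPM in the control libraries, at -2.30 (corrected -1.53). NCAPH2, a condensin II subunit, had 107, 108 and 103 CPM after knockdown, against 38.5, 39.98 and 38.5 CPM in control cells, and rose by 1.44 (corrected 0.87), against the fall of NCAPD3 in the same complex.

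Of 26 other kinetochore genes, 12 were higher and 12 lower. CENPT, which like CENPC carries the NDC80 complex, had 55.5, 57.4 and 58.5 CPM after knockdown, against 20.9, 22.4 and 21.3 CPM in control cells, a rise of 1.41 (corrected 0.76). The anaphase-promoting complex list had 8 of 16 genes higher and 7 lower. UBE2S, the ubiquitin chain-extending partner of UBE2C, had 373, 377 and 379.8 CPM after knockdown, against 145, 155 and 155 CPM in control cells, at 1.32 (corrected 0.87). CDC27, a core subunit, had 49.5, 46.99 and 48.9 CPM after knockdown, against 188, 193 and 189 CPM in control cells, at -1.97 (corrected -0.66). Groups were apart in each of these genes.

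Of 19 centrosome and augmin genes, 8 were higher and 11 lower. HAUS7, an augmin subunit, had 17.7, 19.3 and 17.4 CPM after knockdown, against 6.39, 7.15 and 6.59 CPM in control cells and rose by 1.44 (corrected 0.31). CEP192, the scaffold that recruits PLK4 and AURKA to centrosomes, had 8.25, 7.56 and 9.46 CPM after knockdown, against 31.4, 29.8 and 33.03 CPM in control cells and changed by -1.91 (corrected -0.80). The list of mitotic entry, exit and cytokinesis regulators held 9 higher and 9 lower, with 2 subunits of the MuvB complex at its ends. LIN37 had 26.1, 27.6 and 25.1 CPM after knockdown, against 6.71, 7.996 and 8.24 CPM in control cells, a rise of 1.79 (corrected 0.57). LIN54, the subunit that reads the CHR, had 7.26, 9.08 and 6.37 CPM after knockdown, against 30.9, 31.7 and 32.8 CPM in control cells, at -2.05 (corrected -0.86). The kit is stranded per the labels, but the sources used here do not give the strand setting of the counting, so reads of HJURP, NUF2, SPC24, SPC25, SGO2, PLK1, CDCA3, TACC3, NUSAP1, CKAP2L, SMC4, NCAPD2, NCAPD3, NCAPG, ANLN and RACGAP1, which overlap coding genes on the other strand, may include reads of those. CENPA, BUB1B, NUSAP1 and PRC1 overlap coding genes on the same strand, which no strand setting separates.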

How the data were processed

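Total RNA of 3 siPRMT1 and 3 control samples was sequenced as paired reads from stranded mRNA libraries, per the labels' protocols. Reads were handled with STAR 2.7.6a, fastp 0.23.2, Subread 1.5.1 with featureCounts, and edgeR 3.40.2 on build hg38, per the submitters' processing notes, which give these without roles. The values the authors deposited are unnormalized whole read counts, 1 per gene and sample, with coordinates and a gene length column that was not used here. Total counts were 16968563 to 20545995 per sample, so counting error is small for all but the lowest genes.

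Here the counts were analysed in R 4.3.3 with edgeR 4.0.16 and limma 3.58.1: filterByExpr (13710 genes kept), TMM scaling, glmQLFit and glmQLFTest, with p-values adjusted over every gene kept (Benjamini-Hochberg, threshold 0.05). A size rule of at least 2-fold (a log2 fold change of at least 1) was used beside it. The common dispersion was 9.77e-05, the lowest edgeR's search allows. Lengths and GC content came from canonical transcripts of GENCODE release 44, and the correction used natural splines of 5 degrees of freedom on each. Reads per kilobase are TMM-scaled CPM over that length. DESeq2 1.42.0, limma-voom, other scalings and filters, the replicate block and each sample left out were tried. Scripts used Python 3.11.15, numpy 2.4.6 and pandas 2.3.3, and the fits were tested on simulated data.

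The 58 genes, the role lists and the tests were chosen with earlier results of these data known, and the gene pairs after values were seen. Every sample's value is given for the highest and lowest log2 fold change of each role, for the highest reads per kilobase in control cells and for genes whose sign differs after correction. The remaining genes of the list are given the same way, a choice made after their values were seen. Outside the 58 genes, the highest and lowest of each other mitotic list are given, except for a gene that is not reported here. Replicates of a group differed by slightly more than sampling noise (chi-square over degrees of freedom 1.05 to 1.38, p = 4.40e-178 to 0.000129 in the chi-square test, over genes with at least 20 reads). That test pools all such genes and does not show that the replicates came from separate cultures. All 6 samples were kept.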

Additional observations from a re-analysis of the deposited data

How the results depend on the processing

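RLE scaling, limma-voom, DESeq2, both filters and each sample left out kept the direction of all 69 genes tried (the 58, PRMT1 and 10 others). The calls that some of these settings ended were those of NUF2, NDC80, NCAPH, HMGB2 and CDCA2. Leaving out 1 sample gave 20 to 22 mitotic genes higher, 33 to 36 lower, 4 at least 2-fold higher, 14 to 15 at least 2-fold lower and a median of -0.29 to -0.26. For the 94 other genes it gave 37 to 40 higher, 51 to 52 lower, 14 at least 2-fold higher and 29 to 30 at least 2-fold lower. DESeq2 gave 20 higher and 33 lower. Upper-quartile scaling moved the median to -0.33.

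Library size alone gave 11 higher, 1 at least 2-fold higher and a median of -0.60, and 25 and 5 for the other genes. It turned CDCA8 (-0.036), AURKA (-0.14), NUSAP1 (-0.013), NCAPD2 (-0.083), NCAPG (-0.20), HMGB2 (-0.24), CDCA2 (-0.19) and PRC1 (-0.17). These moves come from the scaling itself, which shifts the median of all tested genes by -0.32.

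The GC and length correction gave 35 higher, 19 lower, 1 and 4 at least 2-fold higher and lower, and a median of 0.31, and for the other genes 32 lower, and 2 and 3 at least 2-fold higher and lower. It turned 19 genes: CENPC (0.36), CENPI (0.31), NDC80 (0.32), NUF2 (0.32), CENPF (0.51), BUB3 (0.99), MAD2L1 (0.40), TTK (0.56), UBE2C (-0.29), SGO1 (0.39), SGO2 (0.12), CDCA3 (-0.031), CKAP5 (0.40), HMMR (0.53), DLGAP5 (0.69), CKAP2L (0.40), SMC4 (0.056), NCAPH (0.67), MKI67 (0.42). The cause was not tested.

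Samples share only a replicate number: the deviations of same-numbered samples correlated at -0.010, 0.037 and 0.00151. With the number as a replicate block, 22 genes were higher and 35 lower, NUF2 losing its call (-0.092). The block with the correction gave 35 higher, 19 lower, 1 and 4 at least 2-fold, and a median of 0.31. For the other genes it gave 31 lower, and 2 and 3 at least 2-fold. The same 19 genes turned: CENPC (0.35), CENPI (0.31), NDC80 (0.32), NUF2 (0.32), CENPF (0.52), BUB3 (0.99), MAD2L1 (0.40), TTK (0.56), UBE2C (-0.29), SGO1 (0.38), SGO2 (0.12), CDCA3 (-0.032), CKAP5 (0.40), HMMR (0.54), DLGAP5 (0.69), CKAP2L (0.40), SMC4 (0.054), NCAPH (0.67), MKI67 (0.42). Depth limits HMMR, CENPC, KNL1 and SGO1 the most, with the largest SE of the 58 genes (0.0897, 0.0780, 0.0722 and 0.0673). LBR had only 177, 211 and 175 counts in the siPRMT1 libraries.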
